A study of Homo sapiens with 3 samples.

Results

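The collagen genes described here are those whose probe sets carry a single gene symbol made of COL, a number, A and a number. They comprise 43 of the 19775 genes on the array and 112 of its 54613 non-control probe sets. By chain type, 9 genes are fibrillar (types 1, 2, 3, 5 and 11, with 27 probe sets), 6 belong to type 4 (19 probe sets), 5 to type 6 (15 probe sets) and 23 to the other types (51 probe sets). COL17A1 was not analysed here. All cultures derived from H9, an established human embryonic stem cell line, whose colonies were lifted off mouse embryonic fibroblasts and first grown as embryoid bodies. The first group was astrocytes at day 210 that had received retinoic acid (RA) from day 10 to day 21. The second was astrocytes at day 210 that had received fibroblast growth factor 8 (FGF8) over the same days. Neuroepithelial cells at day 17, an early neural progenitor stage given no morphogen, were the group both were set against. Total RNA of each group was hybridised to 1 Affymetrix array, so differences are given as sizes with neither a replicate check nor a test, and precision is limited by having so few arrays.

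Collagens are extracellular proteins built of chains that wind around each other in threes as a triple helix. Fibrillar collagens assemble into the ropes of connective tissue, type 4 collagens into the sheet-like network of basement membranes, and type 6 collagens into beaded filaments between fibrils and basement membranes. Fibril-associated, short-chain, transmembrane and basement-membrane-linked collagens make up most of the rest. In the brain, basement membranes line the pial surface and the blood vessels, where astrocyte endfeet rest on them, while the tissue between neurons holds little fibrillar collagen.

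Values are log2 signals after quantile normalization of the 3 arrays. Each gene takes the values of its brightest probe set on average (its main probe set), and signals of different genes are not comparable. The floor was the median of all non-control values, a log2 signal of 4.72. A difference with 1 side at or below it is a lower bound on the size and is marked by the words at least, and none is given where both arrays lie at or below it. Past 2-fold counts as higher or lower. Medians take each bound at its own value, so a median can itself be a bound. In the label check, the astrocyte markers GFAP, AQP4 and S100B lay above the floor on both astrocyte arrays and at it on the neuroepithelial array, and 6 of 6 astrocyte markers were above it in RA and FGF8 astrocytes against 3 in neuroepithelial cells (summed signals 25350, 20019 and 738). All 6 neuroepithelial markers were above the floor on every array (summed signals 14507, 15045 and 19250). Relative to neuroepithelial cells, 4 of them were lower and 1 higher in RA astrocytes, against 14.6% and 18.1% of all genes. In FGF8 astrocytes 3 were lower and 0 higher, against 10.2% and 12.8%. In all such sums a marker at or below the floor adds the floor's own signal of 26.4. The ratio of 3' to 5' signal of ACTB, which climbs as labelled RNA shortens, was 6.67 in RA astrocytes, 6.63 in FGF8 astrocytes and 1.33 in neuroepithelial cells. For GAPDH the same ratio was 1.79, 1.65 and 0.98, in the same order but with a smaller gap. Spiked-in transcripts were brighter on the RA array by a mean log2 difference of 1.39 ± 0.22 against the neuroepithelial array and 1.27 ± 0.14 against the FGF8 array (SD, n = 18 probe sets). These values stand beside every comparison below, and their part in the results was not tested.

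More collagens were lower than higher in both astrocyte cultures relative to neuroepithelial cells, with COL1A1, COL2A1, COL3A1 and COL4A6 among the lower ones in both, while COL4A1, COL5A2, COL6A1 and COL9A3 were among those higher in RA astrocytes. In bulk RNA, fewer cells of a type and less RNA per cell cannot be told apart. Above the floor lay 24 of the 43 genes in RA astrocytes (55.8%), 22 in FGF8 astrocytes (51.2%) and 28 in neuroepithelial cells (65.1%), against 61.1%, 59.9% and 60.4% of all genes. At least 1 array was above the floor for 34 of the 43 genes (79.1%, against 69.5% of all genes), and 9 were at it on all 3. The 34 had their highest signal on the RA array in 10 cases (29.4%, against 38.2% of all genes), on the FGF8 array in 7 (20.6%, against 26.4%) and on the neuroepithelial array in 17 (50%, against 35.3%).

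Between RA astrocytes and neuroepithelial cells 33 collagen genes could be compared. At least 2-fold lower were 16 of them (48.5%, against 14.6% of all genes compared) and 8 were at least 2-fold higher (24.2%, against 18.1%). Between FGF8 astrocytes and neuroepithelial cells 31 could be compared, of which 15 were lower (48.4%, against 10.2% of all genes) and 3 were higher (9.68%, against 12.8%). The share of lower collagens was thus above the background in both comparisons, which share the neuroepithelial array, and the shares of higher collagens lay nearer to it. Median log2 differences over the compared collagens were -0.20 in RA astrocytes and -0.79 in FGF8 astrocytes, beside 0.07 and 0.05 over all genes. The value of -0.20 was the bound of COL23A1. With array medians set equal the medians of all genes moved to 0.35 and 0.42, and the collagens lower than in neuroepithelial cells numbered 15 and 14, against a background of 10.5% and 7.02%.

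**Figure D1:**
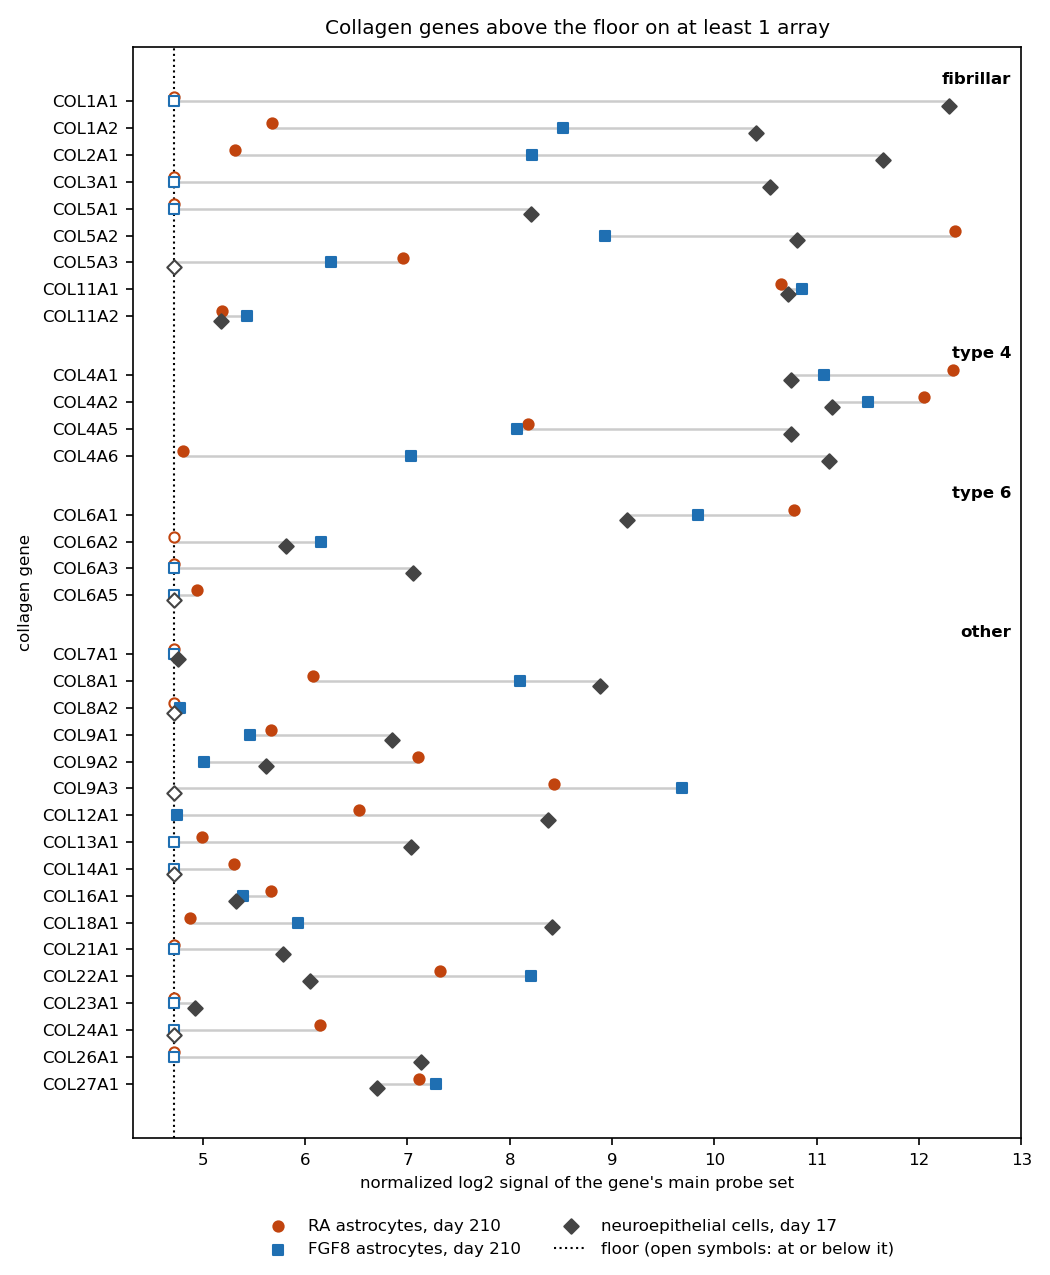
Normalized log2 signal (horizontal axis) of the main probe set of each of the 34 collagen genes above the floor on at least 1 array, by chain type. Circles are RA astrocytes, squares FGF8 astrocytes and diamonds neuroepithelial cells, 1 array each; open symbols lie at or below the floor of 4.72 (dotted line). Most long gaps among fibrillar genes run to the neuroepithelial array on the right, while COL5A2, COL4A1 and COL6A1 have the RA array on the right.

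Among fibrillar collagens the main chains of connective tissue, COL1A1, COL1A2, COL2A1, COL3A1 and COL5A1, were lower in both astrocyte cultures. COL5A3 was higher in both on its main probe set, COL5A2 went opposite ways and the type 11 chains stayed within 2-fold. In RA astrocytes 5 of 9 were lower and 2 higher, against 14.6% and 18.1% of all genes. The median log2 difference was -3.48, the bound of COL5A1, beside 0.07 over all genes. In FGF8 astrocytes 6 were lower and 1 higher, against 10.2% and 12.8% (median -1.89, beside 0.05). Leaving out the _x_at and _s_at probe sets drops COL1A1 and leaves only dimmer probe sets for COL1A2, COL3A1, COL5A3 and COL11A2. Both medians were then -0.10, the bound of the COL3A1 probe set 232458_at. The type 1 and type 3 chains are the bulk of skin, bone and vessel wall fibrils, type 2 that of cartilage.

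COL1A1, the chain present in most copies in type I collagen, had deposited intensities of 7.10 in RA astrocytes and 17.2 in FGF8 astrocytes, against 4581 in neuroepithelial cells. Both astrocyte arrays were at the floor, and COL1A1 was at least 191-fold lower in each. Its partner chain COL1A2 behaved less alike: the log2 signal was 5.67 in RA astrocytes, 8.52 in FGF8 astrocytes and 10.41 in neuroepithelial cells. COL1A2 was therefore 26.7-fold lower in RA astrocytes and 3.72-fold lower in FGF8 astrocytes, which kept COL1A2 well above the floor while COL1A1 lay at it. A further COL1A2 probe set, 202403_s_at, had the same order at 4.78, 8.27 and 10.33, but a dimmer one, 229218_at, differed by 0.27 between FGF8 astrocytes and neuroepithelial cells. Of the other COL1A1 probe sets, 202310_s_at was at least 40.4-fold and 202311_s_at at least 5.14-fold lower in both astrocyte cultures. The cross-hybridising probe set 217430_x_at read 6.11 in RA astrocytes, 5.53 in FGF8 astrocytes and 6.16 in neuroepithelial cells, within 2-fold, and the dim 202312_s_at gave at least 1.12-fold lower in both astrocyte cultures.

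COL2A1, the cartilage chain that early neural tube and notochord also express in vertebrate embryos, had log2 signals of 5.31 in RA astrocytes, 8.22 in FGF8 astrocytes and 11.65 in neuroepithelial cells. It was 80.7-fold lower in RA astrocytes and 10.8-fold lower in FGF8 astrocytes, and all 3 arrays were above the floor. The second probe set of COL2A1 gave at least 61.2-fold lower in RA and 26.2-fold lower in FGF8 astrocytes. COL3A1, which mixes with type I in elastic tissue, had deposited intensities of 4.90 in RA astrocytes and 1.77 in FGF8 astrocytes, against 1425 in neuroepithelial cells, so it was at least 56.8-fold lower in both. Another COL3A1 probe set, 215076_s_at, gave at least 107-fold lower in both, while 232458_at, barely above the floor in neuroepithelial cells, gave only at least 1.07-fold.

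Type 5 chains, which sit in the core of type I fibrils and limit their width, split 3 ways. COL5A1 was at the floor in both astrocyte cultures and at 8.20 in neuroepithelial cells, at least 11.2-fold lower in each. Another of its probe sets, 212488_at, was at 5.16 in FGF8 astrocytes, just above the floor. COL5A2 had log2 signals of 12.35 in RA astrocytes, 8.93 in FGF8 astrocytes and 10.80 in neuroepithelial cells. It was thus 2.92-fold higher in RA astrocytes and 3.67-fold lower in FGF8 astrocytes, and its second probe set gave a log2 difference of 1.59 in RA astrocytes and was 3.99-fold lower in FGF8 astrocytes. COL5A3 had 6.95 in RA astrocytes and 6.25 in FGF8 astrocytes and was at the floor in neuroepithelial cells, at least 4.70-fold and at least 2.89-fold higher. Its second probe set, 218975_at, was above the floor only in RA astrocytes, at 5.79, and at least 2.10-fold higher there. That probe set gave no difference between FGF8 astrocytes and neuroepithelial cells, as both lay at the floor. COL5A2 lies next to COL3A1 on chromosome 2 with 0 protein-coding genes between them in the reference table, and these neighbours had opposite directions in RA astrocytes. COL11A1, a minor chain of cartilage fibrils, read 10.65 in RA astrocytes, 10.86 in FGF8 astrocytes and 10.72 in neuroepithelial cells, and COL11A2 likewise lay within 2-fold at 5.18, 5.43 and 5.17.

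Markers of connective tissue cells moved in part with these fibrillar genes. Of 7 compared, 4 were lower and 0 higher in RA astrocytes (background 14.6% and 18.1%). In FGF8 astrocytes 5 of 7 were lower and 1 higher (background 10.2% and 12.8%). Of 8 mesenchyme and fibroblast markers, 2 lay above the floor in RA astrocytes, 3 in FGF8 astrocytes and 7 in neuroepithelial cells, and their summed signals were 260, 505 and 1660. LUM, DCN and POSTN were at the floor on both astrocyte arrays, while PRRX1 was 4.96-fold higher in FGF8 astrocytes than in neuroepithelial cells and differed by -0.34 in RA astrocytes. TWIST1 was at the floor in RA astrocytes, at 5.20 in FGF8 astrocytes and at 5.02 in neuroepithelial cells. THY1 was within 2-fold in RA astrocytes and at least 3.99-fold lower in FGF8 astrocytes. Epithelium and endoderm markers were also mostly lower, with 3, 2 and 6 of 6 above the floor and summed signals of 367, 219 and 3974. EPCAM, KRT18 and KRT19 were at the floor in both astrocyte cultures. CDH1 differed by -0.20 in RA astrocytes and was 3.17-fold lower in FGF8 astrocytes. Cartilage and notochord markers had 3 of 6 above the floor on each array (summed signals 696, 800 and 1174), with MATN1 at the floor on all and ACAN and TBXT at the floor in neuroepithelial cells, where COL2A1 was highest. The order of COL2A1 was shared by NOG, which was at the floor in RA astrocytes, at 5.75 in FGF8 astrocytes and at 7.70 in neuroepithelial cells, and MATN3 was above the floor only in neuroepithelial cells, at 5.37. Of 6 endothelial markers 0, 1 and 3 were above the floor (summed signals 158, 162 and 294), and CDH5, ESAM and VWF were at it on every array. Of 5 microglia markers 1, 0 and 0 were above the floor (summed signals 137, 132 and 132). The sums of 158 and 132 are floor signal alone, and markers at the floor add to the other sums too. The part of other cell types in the collagen differences was not tested.

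**Figure D2:**
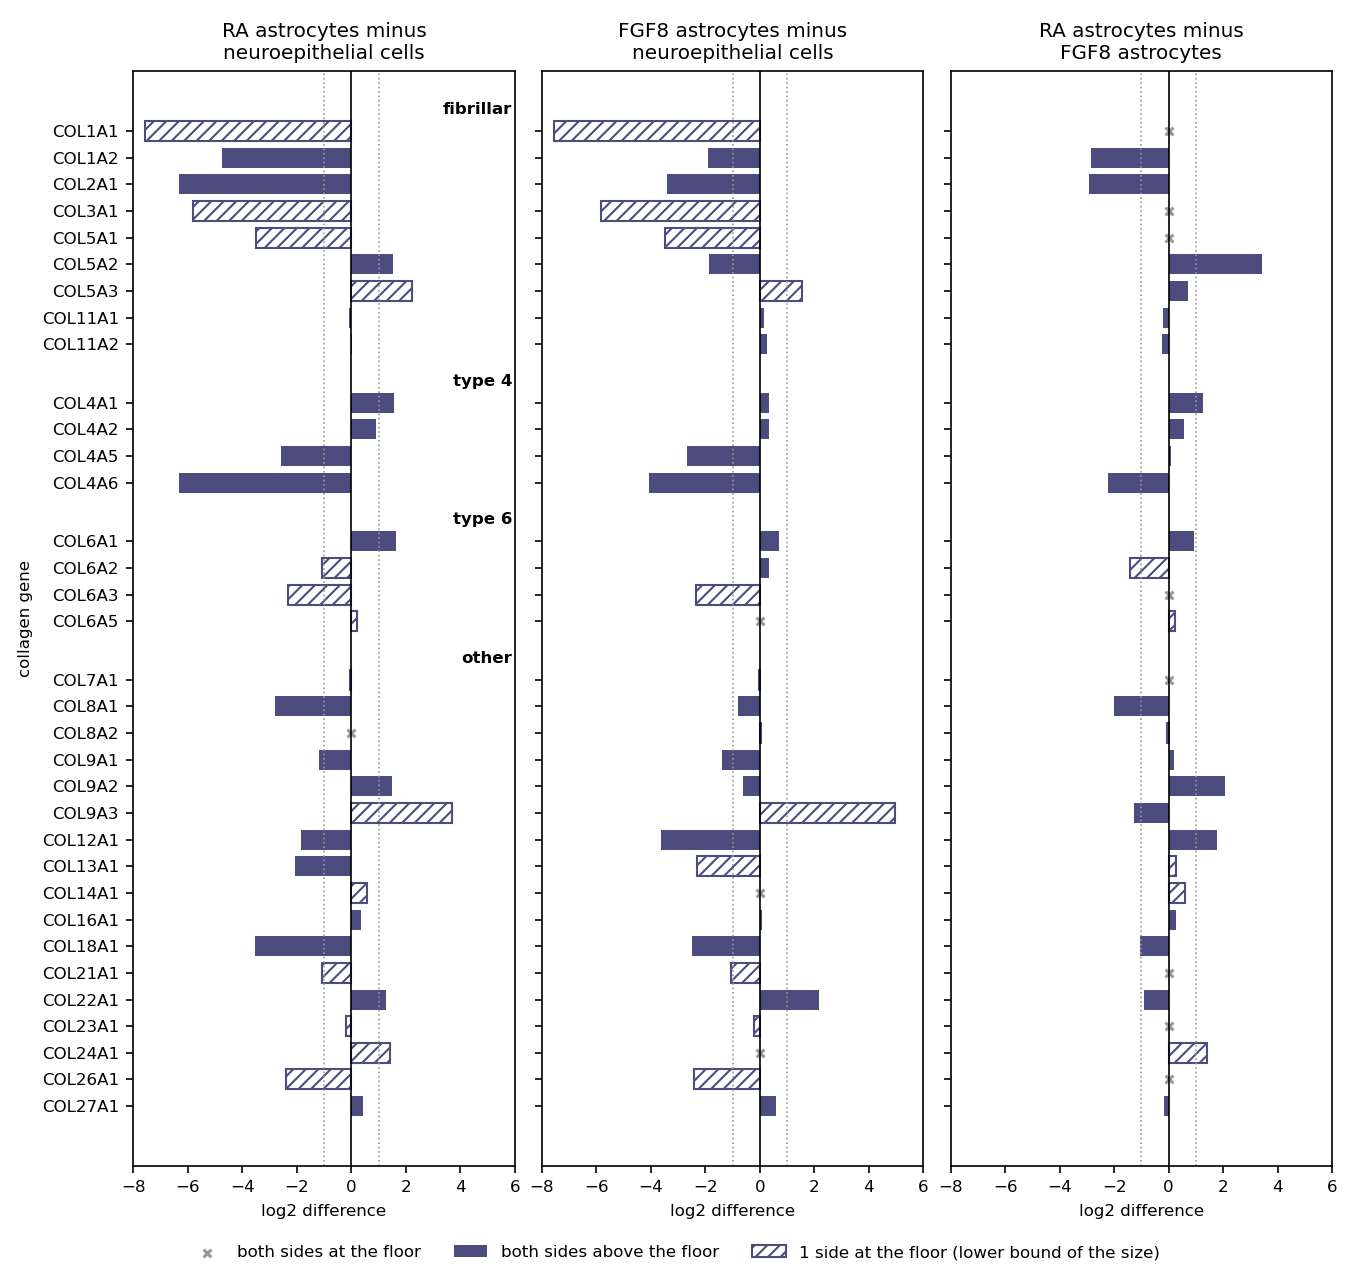
Log2 difference (horizontal axis) of each collagen gene in the 3 comparisons, with RA astrocytes minus neuroepithelial cells on the left, FGF8 astrocytes minus neuroepithelial cells in the middle and RA minus FGF8 astrocytes on the right. Hatched bars are lower bounds with 1 side at the floor, crosses have both sides at the floor and dotted lines mark 2-fold; COL1A1 reaches -7.57 in both astrocyte cultures, and COL5A2 is at 1.54 on the left and -1.88 in the middle.

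Type 4 collagens divided by gene pair. The chains of the common basement membrane network, COL4A1 and COL4A2, were as high or higher in astrocytes than in neuroepithelial cells on their main probe sets, COL4A5 and COL4A6 were lower in both astrocyte cultures, and COL4A3 and COL4A4, chains of the kidney's mature filtration membrane, were at the floor on all 3 arrays by their main probe sets, although another COL4A4 probe set read 5.17 in RA astrocytes. Each pair lies head to head on 1 chromosome with 0 protein-coding genes between. RefSeq promoter sequences (GRCh38.p14), matched by symbol for 31 of the 43 collagen genes, show how close the starts lie. The stretch of 126 bases between the starts of COL4A1 and COL4A2 serves as upstream sequence of both. COL4A6, from its more upstream start, and COL4A5 begin 379 bases apart, and COL4A4 and COL4A3 418 bases apart. The sequences are shown because the pairs differ in behaviour while sharing this layout. They are written on the plus strand for COL4A1 with COL4A2 (chr13:110307158-110307283), COL4A5 (chrX:108439712-108439837) and COL4A3 (chr2:227164498-227164623), and on the minus strand for COL4A6 (chrX:108439459-108439584) and COL4A4 (chr2:227164206-227164331). Each ends at the base before the start of its gene, which for the shared stretch is COL4A2. Capitals mark CCAAT and GGGCGG on either strand, which do not overlap here. The third motif searched, TATAAA, has no match in these windows.
COL4A1 and COL4A2: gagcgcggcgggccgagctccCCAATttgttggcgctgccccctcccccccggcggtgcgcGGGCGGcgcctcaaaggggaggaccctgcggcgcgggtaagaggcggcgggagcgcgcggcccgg
COL4A6: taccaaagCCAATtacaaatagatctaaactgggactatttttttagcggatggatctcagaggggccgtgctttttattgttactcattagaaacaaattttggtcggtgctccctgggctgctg
COL4A5: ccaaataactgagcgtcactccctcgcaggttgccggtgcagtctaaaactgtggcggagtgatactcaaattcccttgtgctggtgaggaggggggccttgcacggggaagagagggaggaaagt
COL4A4: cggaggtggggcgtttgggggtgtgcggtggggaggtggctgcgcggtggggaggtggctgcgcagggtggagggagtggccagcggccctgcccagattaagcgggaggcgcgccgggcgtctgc
COL4A3: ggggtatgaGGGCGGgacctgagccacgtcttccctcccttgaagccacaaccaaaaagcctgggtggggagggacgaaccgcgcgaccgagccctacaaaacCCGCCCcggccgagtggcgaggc
The shared COL4A1 and COL4A2 stretch holds 1 CCAAT and 1 GGGCGG, COL4A6 holds 1 CCAAT, COL4A3 holds 2 GGGCGG and COL4A5 and COL4A4 hold none of the 3 motifs in these windows. In the nearest 126 upstream bases of all 35116 promoters, 21.1% hold CCAAT, 34.6% hold GGGCGG and 5.87% hold TATAAA. These matches describe letters in a window and nothing more.

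COL4A1 had log2 signals of 12.34 in RA astrocytes, 11.07 in FGF8 astrocytes and 10.75 in neuroepithelial cells. Its log2 difference was 1.59 in RA astrocytes, past 2-fold, and 0.32 in FGF8 astrocytes, within it. COL4A2 followed the same order at 12.05, 11.50 and 11.15, with log2 differences of 0.90 in RA and 0.34 in FGF8 astrocytes, both within 2-fold. The second probe sets of this pair read lower in FGF8 astrocytes: COL4A1 differed from neuroepithelial cells by -0.52 on 211981_at, and COL4A2 was 3.13-fold lower on 211966_at, so the direction in FGF8 astrocytes depends on the probe set. In RA astrocytes those probe sets gave 2.52-fold higher for COL4A1 and 0.14 for COL4A2.

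COL4A6 had log2 signals of 4.80 in RA astrocytes, 7.03 in FGF8 astrocytes and 11.12 in neuroepithelial cells, the highest of the 3. It was 79.6-fold lower in RA astrocytes, where it lay just above the floor, and had a log2 difference of -4.09 in FGF8 astrocytes. Its other probe sets were at least 11.9-fold and at least 2.15-fold lower in both. COL4A5, its neighbour and partner chain in smooth muscle and skin basement membranes, had 8.17 in RA astrocytes, 8.07 in FGF8 astrocytes and 10.75 in neuroepithelial cells, 5.95-fold and 6.40-fold lower. The astrocyte arrays differed by 0.10 for COL4A5 against -2.23 for COL4A6. Over the 4 type 4 genes compared, the median log2 difference was -0.84 in RA and -1.18 in FGF8 astrocytes, a midpoint between 2 pairs that went apart, and its sign turned to 0.47 in RA and 0.32 in FGF8 astrocytes once the floor was lowered to the 30th percentile.

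Of the type 6 collagens, COL6A1 was higher in RA astrocytes and COL6A3 lower in both astrocyte cultures. COL6A1 had log2 signals of 10.78 in RA astrocytes, 9.84 in FGF8 astrocytes and 9.14 in neuroepithelial cells, 3.11-fold higher in RA astrocytes and 1.62-fold higher in FGF8 astrocytes. The second brightest COL6A1 probe set, 212091_s_at, gave 4.18-fold higher in RA astrocytes but -0.38 in FGF8 astrocytes, and 5 of the other 6 were at the floor on all arrays. COL6A2, the neighbour of COL6A1 on chromosome 21 and its obligate partner in the filament, was at the floor in RA astrocytes, at 6.15 in FGF8 astrocytes and at 5.81 in neuroepithelial cells. It was at least 2.13-fold lower in RA astrocytes and differed by 0.34 in FGF8 astrocytes, the opposite of COL6A1 in the RA culture. A dimmer COL6A2 probe set was above the floor only in FGF8 astrocytes, at 4.93. COL6A3, the long chain that completes the trimer, had deposited intensities of 0.996 in RA astrocytes and 1.39 in FGF8 astrocytes, against 142 in neuroepithelial cells, at least 5.05-fold lower in both. COL6A5 was above the floor only in RA astrocytes, at 4.94, and COL6A6 was at the floor on every array. Of the 4 type 6 genes compared in RA astrocytes 1 was higher and 2 lower (median -0.43, between bounds), against 18.1% and 14.6% of all genes. Of the 3 compared in FGF8 astrocytes 0 were higher and 1 lower (median 0.34), against 12.8% and 10.2%.

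**Figure D3:**
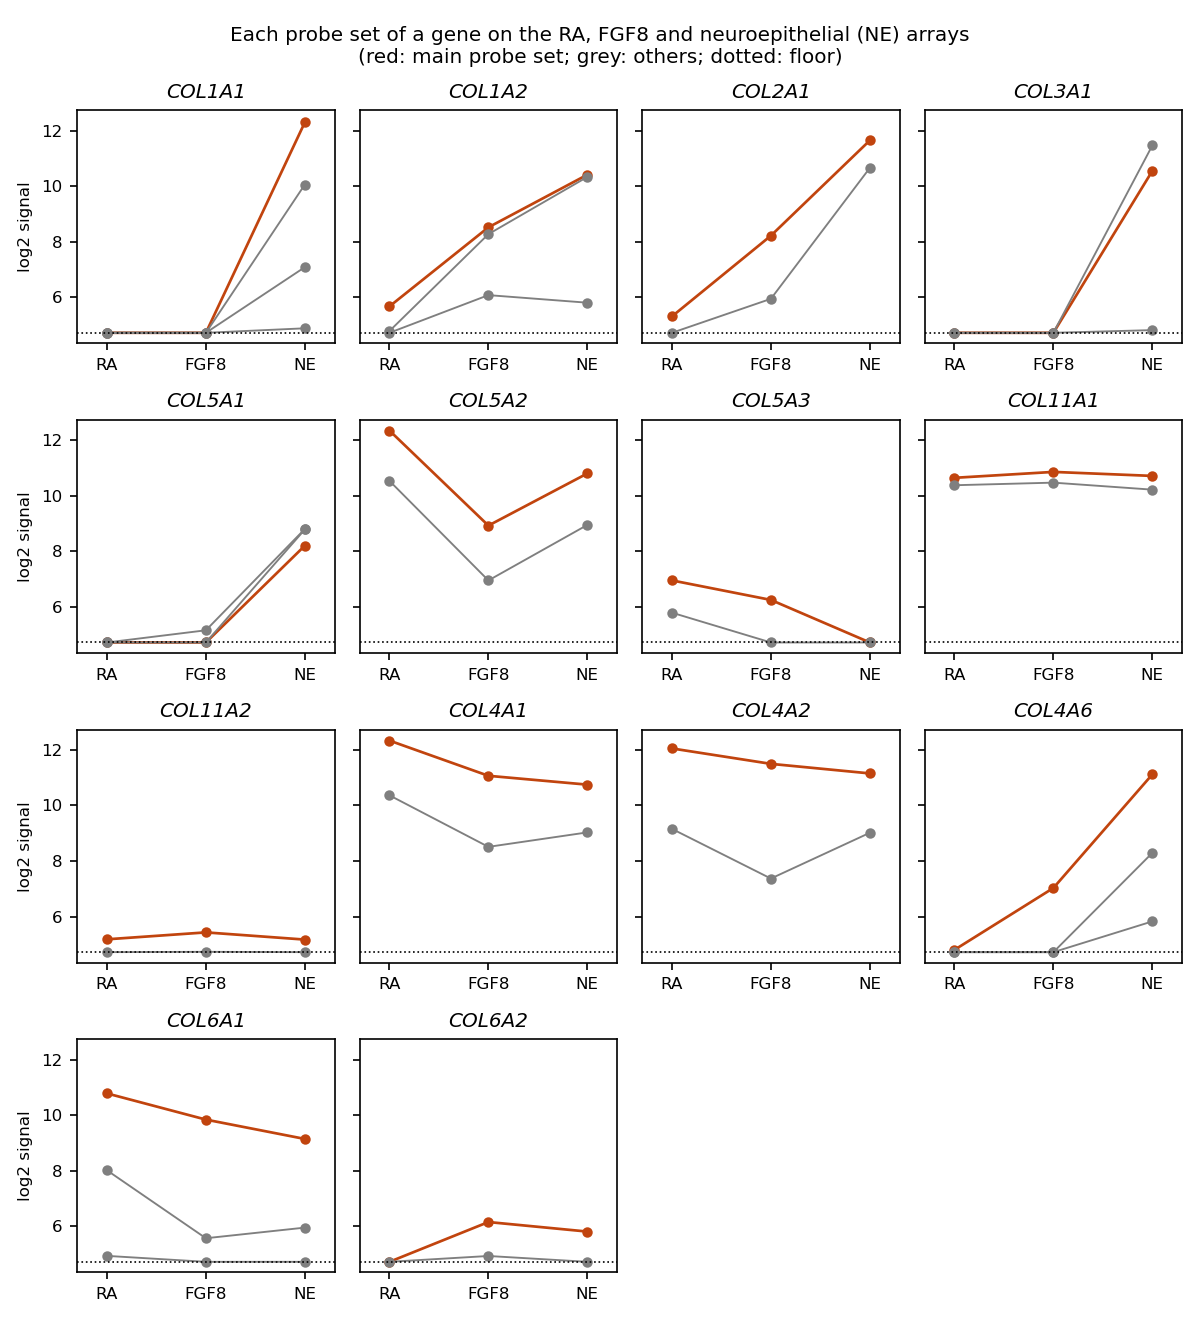
Log2 signal (vertical axis) of every probe set that is not of the cross-hybridising type and lies above the floor on at least 1 array, for fibrillar, type 4 and type 6 genes with more than 1 such probe set, on the RA, FGF8 and neuroepithelial (NE) arrays. Red lines are main probe sets, grey lines the others, and values are drawn no lower than the floor (dotted); the probe sets of COL5A2 run in parallel at different heights, whereas those of COL4A2 part on the FGF8 array.

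The other types held 23 genes. Of 16 compared between RA astrocytes and neuroepithelial cells, 7 were lower and 4 higher (median -0.12, between bounds), against 14.6% and 18.1% of all genes. Of 15 compared between FGF8 astrocytes and neuroepithelial cells, 6 were lower and 2 higher (median -0.60), against 10.2% and 12.8%. Fibril-associated collagens, which coat fibrils without forming them, went both ways. COL9A3, a chain of the type 9 collagen found on cartilage and vitreous fibrils, had log2 signals of 8.43 in RA astrocytes and 9.68 in FGF8 astrocytes and was at the floor in neuroepithelial cells. It was at least 13.1-fold higher in RA and at least 31.1-fold higher in FGF8 astrocytes, on its only probe set. Its partner chains did not follow: COL9A1 had 5.67 in RA astrocytes, 5.46 in FGF8 astrocytes and 6.85 in neuroepithelial cells, 2.27-fold and 2.62-fold lower. COL9A2 was 2.80-fold higher in RA astrocytes and differed by -0.60 in FGF8 astrocytes. Another of its probe sets, barely above the floor in neuroepithelial cells only, gave at least 1.01-fold lower in both.

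COL22A1, a fibril-associated collagen of tissue junctions such as muscle to tendon, had 7.32 in RA astrocytes, 8.20 in FGF8 astrocytes and 6.05 in neuroepithelial cells, 2.41-fold and 4.46-fold higher. Its second probe set gave 3.33-fold and 3.05-fold higher. COL12A1, found on fibrils of tendon and ligament, had 6.53 in RA astrocytes, 4.75 in FGF8 astrocytes and 8.38 in neuroepithelial cells, 3.61-fold and 12.4-fold lower, and was near the floor in FGF8 astrocytes. Other COL12A1 probe sets measured had the same direction but stayed within 2-fold as bounds. COL21A1 was above the floor only in neuroepithelial cells, at 5.78, and at least 2.08-fold lower in both astrocyte cultures. COL14A1 was above the floor only in RA astrocytes, at 5.31, and COL16A1 lay within 2-fold on all arrays at 5.67, 5.39 and 5.32.

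COL18A1, a basement membrane proteoglycan whose end fragment is endostatin, had log2 signals of 4.87 in RA astrocytes, 5.93 in FGF8 astrocytes and 8.41 in neuroepithelial cells. It was 11.6-fold lower in RA and 5.56-fold lower in FGF8 astrocytes, and its second probe set gave at least 10.0-fold and 8.80-fold. COL15A1, of the same subfamily, was at the floor on all 3 arrays. Of the short-chain network collagens, COL8A1, known from vessel walls and the corneal membrane, had 6.08 in RA astrocytes, 8.10 in FGF8 astrocytes and 8.89 in neuroepithelial cells. Its log2 difference was -2.81 in RA astrocytes, past 2-fold, and -0.79 in FGF8 astrocytes. COL8A2 was above the floor only in FGF8 astrocytes, at 4.77 on its main probe set and 5.26 on 221900_at, and COL10A1, of growth plate cartilage, was at the floor throughout.

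Among transmembrane collagens, COL13A1, which occurs at the neuromuscular junction, had 4.99 in RA astrocytes, a value at the floor in FGF8 astrocytes and 7.04 in neuroepithelial cells, 4.14-fold and at least 4.99-fold lower. COL23A1 was above the floor only in neuroepithelial cells, at 4.92, and the main probe set of COL25A1 was at the floor on all arrays. COL26A1 was above the floor only in neuroepithelial cells, at 7.13, and at least 5.31-fold lower in both astrocyte cultures. Of the fibril-forming collagens outside the classical types, COL24A1 was above the floor only in RA astrocytes, at 6.15, at least 2.69-fold higher than in neuroepithelial cells. COL27A1 had 7.12 in RA astrocytes, 7.28 in FGF8 astrocytes and 6.70 in neuroepithelial cells, within 2-fold, while its probe sets 225288_at and 225292_at gave 2.96-fold and 3.28-fold higher in FGF8 astrocytes. COL7A1, the anchoring fibril of skin, was above the floor only in neuroepithelial cells, at 4.76, and COL19A1, COL20A1 and COL28A1 were at the floor on every array.

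The comparison of RA with FGF8 astrocytes sets astrocytes of the same age side by side that differ in the morphogen given early. COL5A2, COL9A2, COL12A1, COL24A1 and COL4A1 were higher in RA astrocytes, and COL2A1, COL1A2, COL4A6, COL8A1, COL6A2, COL9A3 and COL18A1 were lower. Of 26 collagens compared, 5 were thus higher (19.2%, against 9.69% of all genes) and 7 lower (26.9%, against 7.86%), with a median log2 difference of 0.16 beside 0.01 over all genes. COL5A2 stood furthest apart among those higher, at 10.7-fold, and its second probe set had a log2 difference of 3.58. COL9A2 was 4.26-fold higher, COL12A1 3.43-fold, COL24A1 at least 2.69-fold and COL4A1 2.41-fold. The second probe sets of the type 4 pair gave 3.62-fold for COL4A1 and 3.45-fold for COL4A2, whose main probe set was at 0.55. COL6A1 was at 0.94, just within 2-fold, and 5.45-fold higher on its second brightest probe set.

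In the opposite direction COL2A1 was 7.49-fold lower in RA than in FGF8 astrocytes and COL1A2 7.19-fold lower. COL4A6 was 4.68-fold, COL8A1 4.06-fold, COL6A2 at least 2.70-fold, COL9A3 2.38-fold and COL18A1 2.08-fold lower. For COL1A2, COL2A1, COL4A6, COL8A1 and COL18A1 the FGF8 array lay between the RA and neuroepithelial arrays. The main probe sets of COL1A1, COL3A1, COL5A1 and COL6A3 were at the floor on both astrocyte arrays and give no difference between the cultures. On 212488_at COL5A1 was at least 1.36-fold lower in RA than in FGF8 astrocytes.

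Other probe sets of the same genes give a second reading on the same RNA. Of the 24 collagens past 2-fold between RA astrocytes and neuroepithelial cells, 20 had further probe sets, and 26 of these 41 probe sets were above the floor on either array. The sign matched the main probe set for 25 of the 26, 17 of them past 2-fold, and opposite for 1, which was within 2-fold. Between FGF8 astrocytes and neuroepithelial cells 20 of 21 had the same direction, 13 of them past 2-fold, and 1 was opposite within 2-fold. Between RA and FGF8 astrocytes all 7 that could be measured had the same direction, 5 of them past 2-fold. In each comparison most of these measured probe sets were above the floor on only 1 of the 2 arrays. An example is 232458_at of COL3A1, above it only in neuroepithelial cells. In such cases the array above the floor alone set the sign, so the match carries little weight. Probe sets of 1 gene share the RNA and the array, so any match is of probes and not of cultures.

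Genes that modify, export, process, crosslink and bind collagen went both ways within most steps. Of 68 such genes listed, 65 were on the array with a single symbol, and COLGALT2, KDELR2 and DDR1 were not analysed here. In RA astrocytes 56 could be compared with neuroepithelial cells, of which 15 were higher (background 18.1%) and 11 lower (background 14.6%), with a median log2 difference of 0.15. In FGF8 astrocytes 52 could be compared, of which 11 were higher (background 12.8%) and 13 lower (background 10.2%), with a median of -0.12. Between RA and FGF8 astrocytes 6 of 50 were higher and 2 lower (median 0.31), against 9.69% and 7.86% of all genes. Those furthest apart were LOXL2 at 3.68-fold and LOX at 3.34-fold higher in RA astrocytes and PXDN at 6.15-fold and FN1 at 5.30-fold lower.

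Of the list of enzymes and partners that modify prolines and lysines of the chains, 9 of 13 were within 2-fold in each astrocyte culture (medians 0.17 and 0.06). The lysyl hydroxylases, which prepare sites for crosslinks and sugars, were past it in RA astrocytes: PLOD2 was 3.29-fold higher in RA and 2.63-fold higher in FGF8 astrocytes, PLOD3 2.60-fold and 2.02-fold, and PLOD1 3.16-fold higher in RA astrocytes with 0.21 in FGF8 astrocytes. P3H2, a prolyl 3-hydroxylase that acts on type 4 collagen, was 3.27-fold and 2.79-fold lower, and P4HA1, a catalytic subunit of prolyl 4-hydroxylase, was 2.66-fold lower in FGF8 astrocytes. Chaperones and export factors stayed within 2-fold for 9 of 12 genes in RA and 10 of 12 in FGF8 astrocytes (medians -0.24 and -0.33). SERPINH1, the collagen chaperone HSP47, read 10.19 in RA astrocytes, 9.38 in FGF8 astrocytes and 10.16 in neuroepithelial cells, while the retrieval receptor KDELR3 was 2.67-fold and 3.55-fold lower. SEC24D, a coat protein of the vesicles that carry procollagen, was 3.31-fold lower in FGF8 astrocytes, and the zinc transporter SLC39A13 was 2.34-fold higher and the transcription factor CREB3L1 2.02-fold lower in RA astrocytes.

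Proteases that trim procollagen ends and their enhancers, counted as 1 list, had 3 higher and 0 lower of 7 compared in RA astrocytes (median 0.90). In FGF8 astrocytes they had 3 higher and 0 lower of 6 (median 0.85). These and the crosslinking counts stand beside 18.1% of all genes higher and 14.6% lower in RA astrocytes. In FGF8 astrocytes those shares were 12.8% and 10.2%. ADAMTS3, an amino-propeptide protease, had log2 signals of 9.53 in RA astrocytes, 10.38 in FGF8 astrocytes and 6.56 in neuroepithelial cells, 7.85-fold and 14.1-fold higher. BMP1, the carboxy-propeptide protease, was 4.64-fold higher in RA astrocytes and 1.57-fold higher in FGF8 astrocytes. TLL2, a relative of BMP1, was at least 2.08-fold higher in RA astrocytes, and in FGF8 astrocytes PCOLCE2, an enhancer of BMP1, was 2.36-fold and ADAMTS14 at least 2.07-fold higher. Crosslinking enzymes split, 2 higher and 1 lower of 6 in RA astrocytes (median -0.29) and 1 higher and 3 lower in FGF8 astrocytes (median -0.77). LOX, which crosslinks fibrils, had 10.63 in RA astrocytes, 8.89 in FGF8 astrocytes and 7.38 in neuroepithelial cells, 9.56-fold and 2.86-fold higher. PXDN, the peroxidasin that crosslinks type 4 networks, was 17.5-fold lower in RA and 2.84-fold lower in FGF8 astrocytes. LOXL2, another oxidase, was 3.63-fold lower in FGF8 astrocytes and differed by 0.02 in RA astrocytes, and LOXL4 was at least 2.31-fold higher in RA astrocytes.

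Proteins that ride on fibrils or link them to cells had 5 lower and 3 higher of 9 in RA astrocytes. In FGF8 astrocytes they had 5 lower and 2 higher of 9. Over all genes 14.6% were lower and 18.1% higher in RA astrocytes, and 10.2% and 12.8% in FGF8 astrocytes. The list median of -1.02 in each was the bound of FMOD, which was at the floor in both astrocyte cultures. LUM, a fibril-spacing proteoglycan, was at least 33.6-fold lower in both, and POSTN at least 11.2-fold and DCN at least 6.25-fold lower in both, and all 3 also stand in the mesenchyme marker list. FN1, fibronectin, was 25.7-fold lower in RA and 4.84-fold lower in FGF8 astrocytes. In contrast THBS2, a matricellular thrombospondin, was 14.4-fold and 9.67-fold higher and TNC, tenascin C, 6.54-fold and 7.02-fold higher. SPARC, a collagen-binding protein of glia, had a log2 difference of 1.07 in RA astrocytes, past 2-fold, and differed by -0.27 in FGF8 astrocytes. Receptors, beside the same shares of all genes, had 3 higher and 2 lower of 9 in RA astrocytes (median 0.21). In FGF8 astrocytes they had 3 higher and 1 lower of 6 (median 0.62). ADGRG1, an adhesion receptor that binds type III collagen at the cortical surface, had 13.12 in RA astrocytes, 12.16 in FGF8 astrocytes and 9.04 in neuroepithelial cells, 16.9-fold and 8.68-fold higher, while COL3A1 itself was at the floor in both. MRC2, an uptake receptor for collagen, was 11.9-fold and 5.95-fold higher, and the kinase DDR2 had log2 differences of 1.59 and 1.04. ITGA1, the alpha 1 integrin that prefers type 4 collagen, was at least 3.51-fold lower in both, and ITGB1, its beta partner, was at 0.21 in each.

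**Figure D4:**
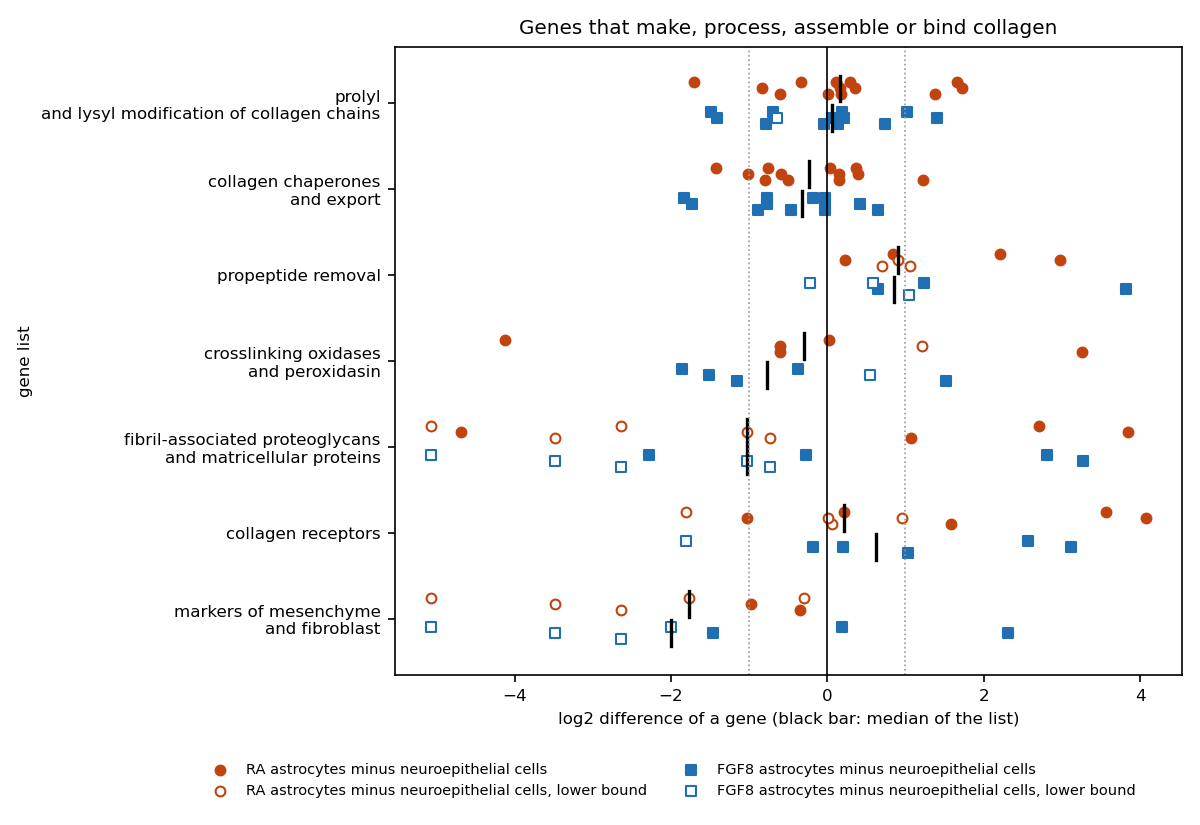
Log2 difference (horizontal axis) from neuroepithelial cells of each gene in 6 lists of collagen-handling genes and in the mesenchyme marker list, for RA astrocytes (circles) above FGF8 astrocytes (squares). Open symbols are lower bounds, black bars list medians and dotted lines 2-fold. Medians of the modification and chaperone lists lie within 0.33 of 0, and those of the fibril-associated list are bounds at -1.02.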

How the data were processed

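Per the labels' protocols, total RNA was isolated with Trizol and cleaned on a column. The deposited values are a linear intensity for each of 54675 probe sets, made by the authors with an algorithm that the labels do not name. Each array's mean without its lowest and highest 2% was near 150.0 as deposited. From these, 62 control probe sets were left out, the 3 arrays were quantile normalized on the linear scale and brought to log2, and the floor was set at the median. Gene symbols came from GEO's platform annotation; 41091 probe sets had 1 symbol, 1801 several and 11721 none. Only those with 1 were used, and the gene IDs of 41037 matched RefSeq genes of GRCh38.p14 with 0 symbols changed. A gene took its probe set of highest mean, leaving out _x_at types where it had another.

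Every collagen above the floor on an array could be named, and from each list of collagen-handling genes up to 3 per direction and comparison by size. No test was possible with 1 array per group, so size past 2-fold stands in its place. The members, lists and rules were chosen with earlier results of these data known. Alternatives covered scaling, floor, choice of probe sets and size. The steps were tested on simulated data with changes given only to bright genes, so the handling of signals at the floor was not tested. Python 3.11.15, pandas 2.3.3 and NumPy 2.4.6 were used.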

Additional observations from a re-analysis of the deposited data

Results flagged for a closer look

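COL5A2 was past 2-fold from neuroepithelial cells in opposite directions in the RA and FGF8 astrocyte cultures, at log2 differences of 1.54 and -1.88, so that RA and FGF8 astrocytes differed by 3.42. With 1 array per group this difference was not tested. In data outside the main probe sets, probe set 241565_at of COL4A4 reached a log2 signal of 5.17 on the RA array, above the floor of 4.72, while the main probe set was at the floor on all 3 arrays. Likewise probe set 1555253_at of COL25A1 reached 5.31 on the neuroepithelial array only.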

How the results depend on the processing

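No paired analysis was possible because each group has 1 array. Counts of collagens past 2-fold moved with the floor, the probe sets kept and the size asked for. With a floor at the 70th percentile, 24 collagens were compared between RA astrocytes and neuroepithelial cells. Of these 4 were higher (background 16.4%) and 10 lower (background 13%), against 8 and 16 of 33 in the report. Between RA and FGF8 astrocytes 15 were compared, 2 higher (background 8.14%) and 4 lower (background 6.26%), against 5 and 7 of 26. Without a floor all 43 were compared. Higher than in neuroepithelial cells were 13 in RA (background 25.1%) and 6 in FGF8 astrocytes (background 20%). Higher in RA than in FGF8 astrocytes were 12 (background 18.4%). With the floor at the 30th percentile 6 of 38 were higher in FGF8 astrocytes than in neuroepithelial cells (background 14.3%). With the mean of all probe sets 5 of 28 were higher in RA astrocytes than in neuroepithelial cells (background 15.8%). Lower in RA than in FGF8 astrocytes were 3 of 20 (background 8.31%). Leaving out the _x_at and _s_at probe sets kept 37 of 43 collagens, without COL1A1. Lower than in neuroepithelial cells were then 9 of 24 in RA (background 14.2%) and 8 of 23 in FGF8 astrocytes (background 10%). In FGF8 astrocytes 1 was higher (background 13.3%). Lower in RA than in FGF8 astrocytes were 4 of 21 (background 8.02%). At 4-fold, 2 of 33 were higher in RA astrocytes than in neuroepithelial cells (background 6.52%). Between RA and FGF8 astrocytes 2 of 26 were then higher (background 2.5%) and 4 lower (background 2.65%). At 1.5-fold 8 were higher there (background 19.5%).

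Medians: without the _x_at and _s_at probe sets the fibrillar median was -0.10 in both astrocyte cultures, the type 6 median -1.06 in both and the type 4 median 0.32 in FGF8 astrocytes. In RA astrocytes the type 4 median was 0.90 under that setting, 0.47 with the floor at the 30th percentile and 0.73 without a floor. In FGF8 astrocytes it was -0.64 with array medians set equal, 0.32 with the floor at the 30th percentile and 0.12 without a floor. Between RA and FGF8 astrocytes it was 1.24 with the mean of all probe sets. Among single collagens, 375 of 411 recomputed differences stayed on their side of 2-fold, 30 no longer passed it and 5 newly passed it. A further 44 had no value under a setting, through the floor or a lack of probe sets. The sign turned for 2, both in FGF8 against neuroepithelial cells: COL1A2, 0.27 without the _x_at and _s_at probe sets, and COL4A1, -0.10 with the mean of all probe sets. Apart from the probe sets dropped, the causes were not tested. Signals near the floor, and 1 array per group, limit all of these values.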
